A study of Homo sapiens with 32 samples.

Results

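RGS4 encodes a regulator of G protein signaling, and it was examined here as 1 of the 22610 entries of a transcript table from SK-N-BE(2) cells, an established MYCN-amplified human neuroblastoma line. The gene was selected on its difference between cannabidiol (CBD) and vehicle in these same samples, so its comparison of CBD with vehicle below is a description and carries no test. Cells plated in 6-well dishes received either 20 µM CBD dissolved in ethanol or vehicle, which was 0.1% ethanol alone, and polyadenylated RNA was sequenced after 3, 6, 12 and 24 h with 4 replicates of each treatment at each time (32 samples, 8 groups). No genetic change separated the groups, and both treatments contained ethanol. The replicates are wells of 1 cell line, so the p-values given here measure the spread between these wells. All levels are FPKM, fragment counts scaled for transcript length and for the number of mapped fragments.

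RGS proteins accelerate GTP hydrolysis by G alpha subunits and so shorten the signal that a G protein-coupled receptor sends into the cell. RGS4 is a small member of the family that acts on Gi/o and Gq subunits, is abundant in neurons, and dampens signaling from muscarinic, opioid and other receptors. The RGS4 protein is also short-lived, because its amino terminus is recognised by the arginine N-degron pathway, and palmitoylation holds it at membranes. Transcript levels, the only measure used here, do not report protein levels.

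RGS4 lies on chromosome 1 from 163038565 to 163046592 on the plus strand (GRCh37, the build also called hg19), where the GENCODE annotation lists 10 transcripts from 7 start positions and 4729 exonic bases. None of its 4948 exonic words of 50 bases, the read length, occurred in an exon of another annotated gene (0 of 4948), so its reads were not shared with paralogs on this measure. RefSeq lists 4 promoter windows for RGS4, each reaching from 250 bases before a start to 50 after it in its GRCh38.p14 table. All were found letter for letter in GRCh37. The stretch that holds the motif matches is shown because it is the region in front of the start at 163039151, where more annotated transcripts begin than at any other. In the first sequence the capitals mark CGTCA, the reverse strand of TGACG, the short form of the cAMP response element (CRE). It lies 139 bases before that start, inside an intron of longer transcripts. In the second the capitals mark a TATA box, 30 bases before the same start and inside an annotated exon of those longer transcripts.
RGS4 upstream sequence, chr1:163038901-163039041, plus strand, GRCh37: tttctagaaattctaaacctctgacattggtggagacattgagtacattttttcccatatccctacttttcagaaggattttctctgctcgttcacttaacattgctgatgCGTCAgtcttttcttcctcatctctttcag
RGS4 TATA box, chr1:163039109-163039138, plus strand, GRCh37: tcgtagctgggcTATAAAagagacccctac

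TATAAA was present in 1 of the 4 RGS4 windows and in 11.5% of all 35116 promoter windows of the same length, counting both strands. TGACG was present in 2 of the 4, which overlap and share the same match, and in 24.6% of all windows. The full CRE (TGACGTCA), an AP-1 site (TGANTCA), the hypoxia-inducible factor core (ACGTG), an E-box (CACGTG) and an ETS site (CCGGAAG) had no match in the RGS4 windows. A match describes letters in a window and does not show that a factor binds there.

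In vehicle cultures, RGS4 climbed through the day. At 3 h the replicates were at 54.3, 59.6, 58.7 and 62.8 FPKM, a mean of 58.9 ± 3.51 (SD, n = 4). At 6 h they were at 67.8, 87.2, 101.2 and 85.1 FPKM (85.3 ± 13.7), and at 12 h at 95.1, 97.0, 103.8 and 109.3 (101.3 ± 6.54). By 24 h they reached 168.4, 147.7, 167.8 and 139.2 FPKM. The ranges at 6 and 12 h overlapped, and the other neighbouring times did not.

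From 3 to 24 h the vehicle mean rose 2.65-fold, a log2 difference of 1.39 (standard error 0.08, limma adjusted p = 6.83e-14, exact two-sided permutation p = 0.0286). Here and below, log2 differences are on the log2(FPKM + 1) scale, adjusted p comes from 1 limma fit over the 12621 genes of mean FPKM 1 or more, and a call means an adjusted p under 0.01. With 4 samples against 4, 0.0286 is the smallest p that the exact test can give. This course was not the contrast that selected RGS4, but the vehicle samples are shared with that contrast, so these tests are not independent of it. Much else moved with time in vehicle, since 57.8% of all genes tested were called between 3 and 24 h.

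The vehicle rise came mainly in the first and last intervals. Between 3 and 6 h the log2 difference was 0.52 (limma adjusted p = 9.43e-05), in a comparison that called 9.48% of genes. Between 6 and 12 h it was 0.26 and not called (limma adjusted p = 0.0399), where 4.87% of genes were called, and without vehicle replicate 3 at 6 h, the highest of its group, it became 0.34 and was called (limma adjusted p = 0.00561). Between 12 and 24 h it was 0.61 (limma adjusted p = 6.31e-07), against 39.4% of genes called. A fit on the 8 samples of 3 and 6 h alone did not call the first step (limma adjusted p = 0.0258).

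With CBD, RGS4 fell early and stayed low. The CBD replicates were at 43.5, 44.2, 46.1 and 45.2 FPKM at 3 h (44.8 ± 1.17) and at 34.3, 34.3, 33.8 and 33.6 at 6 h (34.0 ± 0.340). They were at 30.0, 36.4, 35.5 and 35.6 FPKM at 12 h (34.4 ± 2.93) and at 30.0, 27.0, 28.9 and 29.2 at 24 h. Every CBD sample at 6 h or later was below every CBD sample at 3 h, and the 6 and 12 h ranges overlapped.

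Within the CBD cultures RGS4 fell by 0.62 on the log2 scale from 3 to 24 h (limma adjusted p = 1.17e-07, exact two-sided permutation p = 0.0286), a comparison in which 67.8% of genes were called. The CBD samples are those in which the gene was selected for a low level, so the tests of this course are not independent of that choice. The first step, from 3 to 6 h, was a fall by 0.39 (limma adjusted p = 0.00113), where 11% of genes were called. From 6 to 12 h no change was called (log2 difference 0.01, limma adjusted p = 0.931), while 23.8% of genes were called. From 12 to 24 h the difference was -0.25 and missed the threshold narrowly (limma adjusted p = 0.0101), where 52% of genes were called. Without CBD replicate 1 at 12 h, the lowest of its group at 30.0 FPKM, that last difference was -0.31 and was called (limma adjusted p = 0.00245). The same library had the lowest relative depth of all 32, at 0.787 of the median. With relative depth as a term in the fit, the 12 to 24 h difference was -0.32 (limma adjusted p = 0.00167). The part of depth in the RGS4 value of that library alone was not tested.

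The 2 courses separated early and kept separating. The mean with CBD was 76.0, 39.8, 34.0 and 18.5% of the vehicle mean at the 4 successive times. The highest CBD replicate stood at 85.0, 50.6, 38.3 and 21.6% of the lowest vehicle replicate, so the groups did not overlap at any time. The gap widened from 14.1 FPKM at the first time to 127 FPKM at the last as the vehicle level rose and the CBD level fell. At 3 h the difference on the log2 scale was -0.39 (standard error 0.08). In the order of the 8 group means, from CBD at 24 h up to vehicle at 24 h, the only neighbours whose ranges overlapped were CBD at 6 and 12 h and vehicle at 6 and 12 h. Bulk RNA cannot separate fewer RGS4-expressing cells from less RGS4 RNA in each cell.

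**Figure D1:**
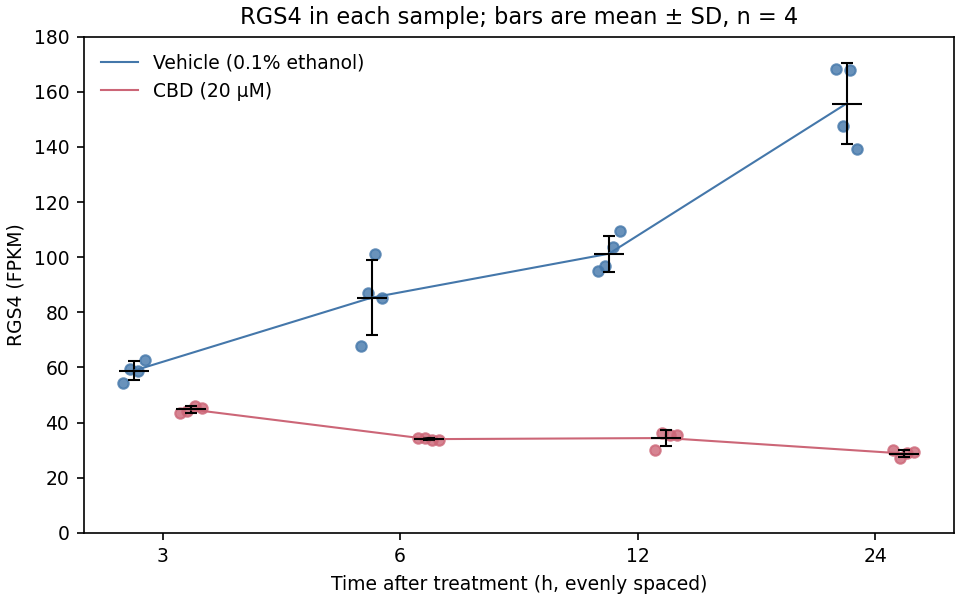
RGS4 in FPKM (vertical axis, from 0) at 3, 6, 12 and 24 h (horizontal axis, evenly spaced), with 1 point per sample, vehicle in blue and CBD in red, lines through the means and black bars for mean ± SD (n = 4). Vehicle climbs from a mean of 58.9 to 155.8 FPKM, CBD declines from 44.8 to 28.8 FPKM, and no CBD sample reaches a vehicle sample of the same time.

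Among all genes called lower with CBD, RGS4 had the largest log2 fall at 12 h. It ranked 2 at 6 h, behind the zinc importer SLC39A10, and 3 at 24 h, behind the microRNA entries MIR4728 and MIR941-1. At 3 h it ranked 6, behind ALAS1, DOK3, INSM2, SLC39A10 and TXNIP. Ranked over all 12621 genes tested, called or not, its difference was number 185, 90, 53 and 35 from the lowest at 3, 6, 12 and 24 h. Its label as the most repressed signaling gene does not hold at 3 h, when the adaptor protein gene DOK3 fell more. The background of calls grew with time: 2.46, 10.2, 20.1 and 42.1% of genes tested were called at 3, 6, 12 and 24 h. These ranks come from the contrast that selected the gene. They were taken on the log2(FPKM + 1) scale only, where the added 1 shrinks the differences of low genes more than those of abundant ones.

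Replicates of RGS4 scattered more than those of other genes at its level in most groups. The coefficient of variation in vehicle was 5.97, 16.0, 6.46 and 9.40% at the 4 successive times. The median of the 1055 genes whose mean level lay within 1.5-fold of that of RGS4 was 2.50% to 4.50% across the 8 groups. With CBD the coefficient was 2.62% at 3 h and 0.999% at 6 h, below that median in both, and 8.52% and 4.46% at 12 and 24 h, above it.

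The cultures carried the transcripts of noradrenergic neuroblastoma. The 8 markers used (PHOX2A, HAND2, GATA3, ISL1, DBH, TH, MYCN, CHGA) each had a mean of at least 1 FPKM. Their sum ran from 3213 to 3551 FPKM in vehicle samples and from 3408 to 4035 in CBD samples. MYCN, at a mean of 1762 FPKM, was the largest part of that sum. DBH was lower with CBD at 24 h (mean 3.96 FPKM) than with vehicle (13.0 FPKM). Of the immune markers 0 of 4 reached 1 FPKM and of the epithelial markers 1 of 4, EPCAM at 2.51 FPKM. Of the fibroblast markers 3 of 6 did. These were the proteoglycan genes LUM and DCN at 56.5 and 7.14 FPKM and the collagen gene COL1A1 at 1.5 FPKM. The others, COL1A2, COL3A1 and PDGFRA, were at 0.00918, 0.23 and 0.626 FPKM. The fibroblast sum was 54.3 to 77.6 FPKM with vehicle and 59.3 to 71.7 with CBD, so it spanned one range in both. Estimated relative depth ran from 0.787 to 1.20 over the 32 libraries, and 19359 to 19962 entries were above 0. Mean relative depth was lower with CBD than with vehicle at each time. At 3, 6, 12 and 24 h it was 0.948, 0.988, 0.911 and 1.00 with CBD and 1.02, 1.05, 0.999 and 1.06 with vehicle.

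RGS4 did not move with its family as a block. Of 20 other RGS genes listed, 18 were in the table and 13 reached a mean of 1 FPKM and were tested. At 3 h a single gene was called, RGS16, which rose (1 of 13). By 6 h 3 genes were called, of which 1 rose and 2 fell, and by 12 h 4 genes, with 2 in each direction. The 24 h comparison called 10 of the 13, of which 7 rose and 3 fell. These are 7.69, 23.1, 30.8 and 76.9% of the 13, against 2.46, 10.2, 20.1 and 42.1% of all genes tested. The median log2 difference of the 13 was 0.05, -0.05, 0.06 and 0.12 at the 4 times, while the median of all genes tested stayed within 0.01 of 0. These counts move with the fit: 0 were called at 6 h and 6 at 24 h when only the 2 groups compared were fitted, and 1 to 3 at 12 h when single samples were left out.

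RGS2, which acts mainly on Gq, was the family member that fell most beside RGS4. At 24 h it was at 9.79, 11.0, 10.9 and 10.8 FPKM with CBD and at 15.2, 16.0, 16.3 and 16.7 with vehicle, without overlap. Its log2 difference was -0.13 at 3 h, which was not called (limma adjusted p = 0.115), then -0.26, -0.33 and -0.55 (standard error 0.05, limma adjusted p = 1.21e-09 at 24 h). Unlike RGS4, RGS2 did not climb in vehicle, where its 24 h mean was 16.0 FPKM and its 3 h mean 17.6. RGS12, a large multidomain member, fell by 0.16 at 6 h, 0.13 at 12 h and 0.18 at 24 h, but none of these 3 calls held when only the groups compared were fitted (limma adjusted p = 0.0228, 0.0119 and 0.0155), and the 12 h call was also lost without a filter on low FPKM and with median-ratio scaling.

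RGS5, the family member nearest to RGS4 in the genome, was also the most abundant. Its vehicle replicates were between 317 and 369 FPKM at 3 h and between 448 and 471 at 24 h, and its CBD replicates were between 307 and 356 at 3 h and between 343 and 366 at 24 h. RGS5 rose in vehicle over the course (log2 difference 0.40, limma adjusted p = 2.40e-07) and was not called in CBD over the same hours (0.08, limma adjusted p = 0.156). Only at 24 h was it called lower with CBD, by 0.37 on the log2 scale (limma adjusted p = 1.33e-06), and its differences at the 3 earlier times were -0.06, -0.05 and -0.08.

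RGS16, a close relative of RGS4, went the other way and did so first. At 3 h the CBD replicates were at 9.80, 10.4, 10.0 and 9.60 FPKM and the vehicle replicates at 7.06, 6.78, 7.08 and 6.50. The log2 difference was 0.48 at 3 h (limma adjusted p = 2.43e-09), 0.20 at 6 h, 0.06 at 12 h (not called, limma adjusted p = 0.272) and 0.30 at 24 h (limma adjusted p = 2.90e-07). RGS16 rose in vehicle too, from a mean of 6.86 FPKM at 3 h to 11.5 at 24 h, as RGS4 did.

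At 24 h the other members called higher were RGS14, RGS10, RGS17, RGS19, RGS3 and RGS7. RGS14 stood at 6.59, 7.45, 7.54 and 7.27 FPKM with CBD against 5.05, 4.78, 4.85 and 5.73 with vehicle (log2 difference 0.43, limma adjusted p = 3.54e-07). RGS10 stood at 21.4 to 25.3 FPKM against 17.8 to 19.1 (0.33, limma adjusted p = 6.65e-04), and both genes had separated ranges. RGS17, which was called at 12 h as well, had a 24 h difference of 0.29, and RGS19, RGS3 and RGS7 had 0.20, 0.13 and 0.11. RGS20 was called higher at 12 h only (0.21) and was at 0.12 at 24 h (limma adjusted p = 0.0838). With only the groups compared, the 24 h calls of RGS19, RGS3 and RGS7 were lost (limma adjusted p = 0.0226, 0.0259 and 0.0106). That fit also lost the 6 h calls of RGS2 and RGS16 (limma adjusted p = 0.0430 and 0.0356). The 12 h calls of RGS17 and RGS20 were lost without a filter on low FPKM, with quantile normalization and with relative depth as a term. RGS9 and RGS11 were not called at any time, with 24 h differences of 0.07 and 0.00.

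The CBD effect itself changed between 3 and 24 h for 6 of the 13 genes, in a comparison that called 27.2% of all genes. It moved down for RGS2 (-0.42), RGS5 (-0.32), RGS12 (-0.22) and RGS16 (-0.18) and up for RGS14 (0.33) and RGS17 (0.30).

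Summed over the family, FPKM in vehicle rose from 479 at 3 h to 708 at 24 h and with CBD went from 455 to 484. RGS4 held 12.3% of that sum in vehicle at 3 h and 22.0% at 24 h, and with CBD it went from 9.83% to 5.95%. In every group RGS4 was the second most abundant RGS transcript per length, behind RGS5, which held 64.6% to 75.0%. The mean of RGS5 was 5.89 times that of RGS4 in vehicle at 3 h and 2.93 times at 24 h, and with CBD it was 7.44 times at 3 h and 12.2 times at 24 h.

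**Figure D2:**
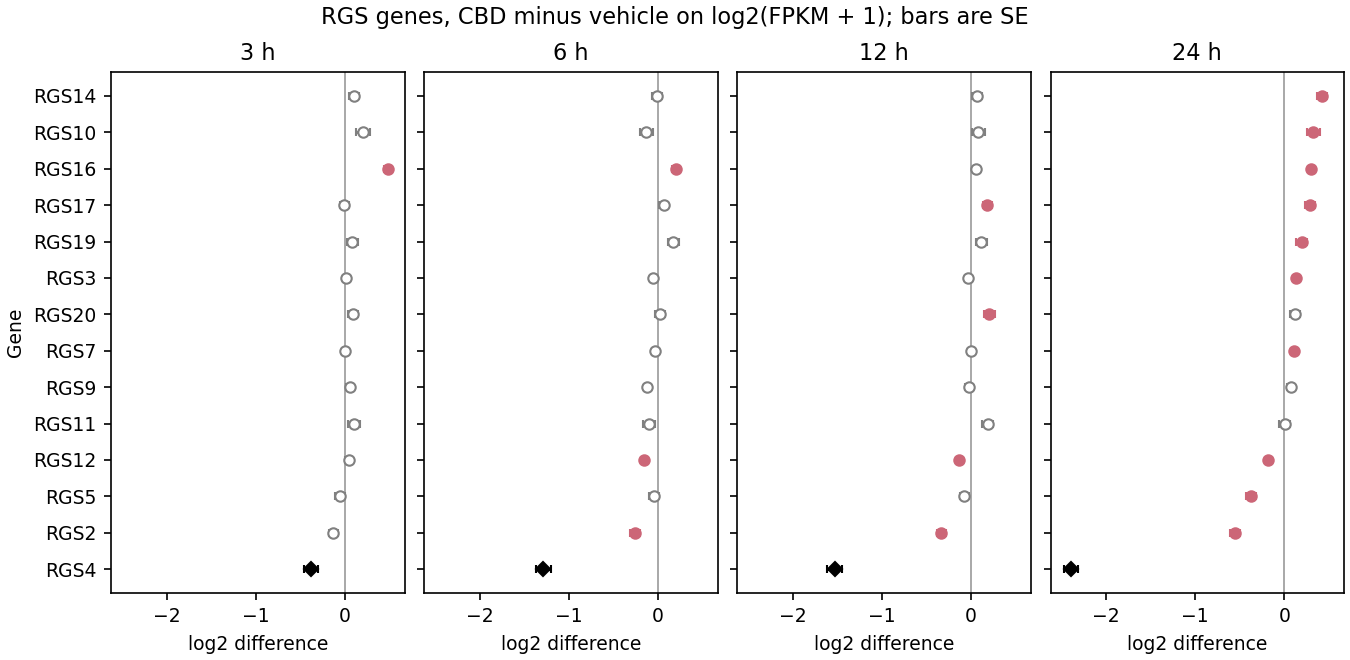
Log2 difference on log2(FPKM + 1), CBD minus vehicle, with standard error (horizontal axis) for RGS4 and 13 other RGS genes (vertical axis, ordered by the 24 h value) at 3, 6, 12 and 24 h, where filled red circles have an adjusted p under 0.01, open circles do not, and the black diamond is RGS4, which has no test. RGS4 reaches -2.39 at 24 h while the other genes lie between -0.55 and 0.43 at that time, and RGS16 is at 0.48 at 3 h.

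G alpha subunits are the proteins on which RGS4 acts, and their effectors are those that they in turn control. These genes had at most 1 call at each time before 24 h. Of 23 genes listed, 16 were tested, and 0, 1, 1 and 6 were called at 3, 6, 12 and 24 h, which is 0, 6.25, 6.25 and 37.5% of those tested, against 2.46, 10.2, 20.1 and 42.1% of all genes. No test of that difference was made, and the counts moved with the fit. With the replicate block 2 were called at 6 h and 2 at 12 h. With relative depth as a term 0 were called at either time, and with median-ratio scaling 0 at 6 h. Leaving out single samples gave 0 to 2 at 6 h and 0 to 1 at 12 h. The call at 6 h was a lower level of the phospholipase PLCB1 (-0.23, limma adjusted p = 0.0095) and at 12 h of the Gq subunit gene GNAQ (-0.13). At 24 h GNAQ (-0.17), GNA11 (-0.26), GNAI2 (-0.24) and PLCB2 (-0.12) were lower and the adenylyl cyclase gene ADCY9 (0.11) and the inward-rectifier channel gene KCNJ9 (0.19) higher. The median difference of the list was 0.02 at 24 h, and the most abundant Gi/o subunit genes, GNAI3 and GNAO1, were not called at any time. These genes of short counts, and the receptor genes below that differ by under 0.5, were named after their values were seen.

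Receptors that couple to Gi/o or Gq moved in both directions. Of 44 listed, 15 were tested, and 1, 6, 10 and 10 were called at the 4 times. The early call was a rise, the 6 calls at 6 h split into 4 rises and 2 falls, the 10 at 12 h into 6 and 4, and the 10 at 24 h into 5 and 5. The medians of the list were -0.01, 0.12, 0.08 and 0.05. With 40, 66.7 and 66.7% called at 6, 12 and 24 h, the list was called more often than all genes tested (10.2, 20.1 and 42.1%). No test of that excess was made.

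Receptors for lysophosphatidic acid were among those that rose. LPAR3 was at 14.1, 13.3, 14.3 and 13.0 FPKM with CBD at 24 h and at 8.57, 9.31, 8.98 and 8.94 with vehicle, a log2 difference of 0.56 (limma adjusted p = 7.61e-12), after 0.29 at 6 h and 0.34 at 12 h. LPAR2 peaked at 12 h with a difference of 0.53 (limma adjusted p = 8.18e-07) and was at 0.38 at 24 h. LPAR1 was higher at 3 h (0.19), 6 h (0.20) and 12 h (0.11) and was not called at 24 h (0.03). The adrenergic receptor gene ADRA2C, at low levels of 1.17 to 1.36 FPKM with vehicle and 1.82 to 2.42 with CBD at 24 h, had a difference of 0.50 (limma adjusted p = 7.25e-07).

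The chemokine receptor gene CXCR4 was furthest below vehicle among the tested receptors at 24 h and, like RGS4, climbed in vehicle. Unlike RGS4, its mean with CBD did not fall, going from 6.28 FPKM at 3 h to 7.43 at 24 h. In vehicle its mean went from 6.89 FPKM at 3 h to 11.4 at 24 h, a log2 difference of 0.65 (limma adjusted p = 6.79e-12). With CBD at 24 h the replicates were at 7.11, 7.36, 7.52 and 7.74 FPKM, all below the vehicle range of 10.6 to 11.9, and the difference was -0.55 (limma adjusted p = 3.58e-10). The muscarinic receptor gene CHRM2 (-0.41), the somatostatin receptor gene SSTR2 (-0.27), F2R (-0.18) and NPY2R (-0.18) were lower at 24 h as well.

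The genes that control the stability and membrane anchoring of the RGS4 protein had 1 call before 24 h and 5 at 24 h. All 11 genes listed were tested: 0 were called at 3 and 12 h, 1 at 6 h (UBE2B, a ubiquitin-conjugating enzyme of the pathway, 0.11) and 5 at 24 h. The shares at 6 and 24 h, 9.09 and 45.5%, were near the 10.2 and 42.1% of all genes tested, and at 3 and 12 h 2.46 and 20.1% of all genes were called. Higher at 24 h were METAP1 (0.25), which removes the initiator methionine, the arginyltransferase gene ATE1 (0.13) and the recognition protein gene UBR4 (0.24). Lower were the recognition protein gene UBR1 (-0.15) and the palmitoyltransferase gene ZDHHC3 (-0.09). METAP1 was at 31.8, 32.3, 31.9 and 30.9 FPKM with CBD and at 25.8, 26.7, 26.8 and 26.6 with vehicle. ADO, METAP2, UBR2, UBE2A and ZDHHC7 were not called at any time, and the list's median difference at 24 h was 0.02.

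Of the neighbours of RGS4 on chromosome 1, RGS5 was the only tested gene called lower with CBD at 24 h. In all 3 of 8 were called then, where 42.1% of all genes were called and 2691 of 12621 were lower. Of 35 other annotated genes within 1 Mb, 9 were in the table and 8 were tested. RGS5, 34.3 kb away on the minus strand, was lower at 24 h only, as given above. HSD17B7, an enzyme of cholesterol synthesis 256 kb away, was at 12.9, 13.8, 12.8 and 12.9 FPKM with CBD at 24 h and at 7.89, 8.55, 8.25 and 8.19 with vehicle, a log2 difference of 0.61 (limma adjusted p = 1.33e-15). The collagen receptor gene DDR2, 281 kb away, was higher by 0.28 (limma adjusted p = 1.06e-07). NOS1AP, C1orf226, UHMK1, UAP1 and the kinetochore gene NUF2 were not called at 24 h, with differences from -0.15 to 0.07. Earlier calls among these were UHMK1 at 3 h (-0.19) and NOS1AP at 12 h (-0.15), and both were lost with only the groups compared (limma adjusted p = 0.0928 and 0.0948). The NOS1AP call was lost under 6 alternatives in all. RGS5 and NUF2 overlap on opposite strands, and the methods of the study describe the sequencing as stranded without giving how the counting used strand.

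**Figure D3:**
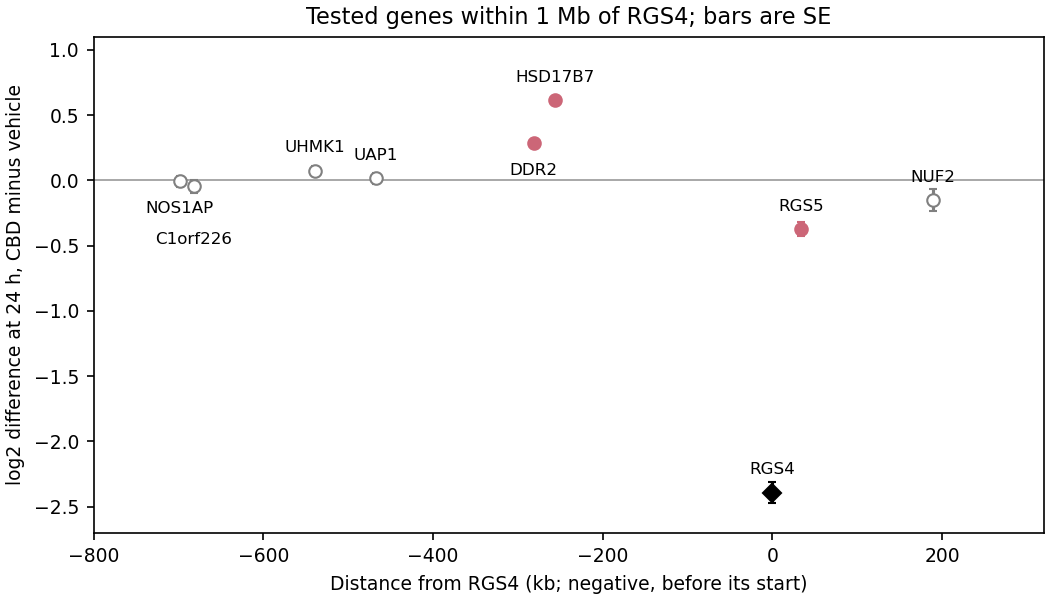
Log2 difference at 24 h on log2(FPKM + 1), CBD minus vehicle, with standard error (vertical axis) against distance from RGS4 in kb (horizontal axis, negative before its start) for RGS4 (black diamond, no test) and the 8 tested genes within 1 Mb, filled red where the adjusted p was under 0.01. RGS4 at -2.39 lies far below its neighbours, which lie between -0.37 and 0.61.

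Genes that followed RGS4 were taken as those with the highest Pearson correlation on log2(FPKM + 1) over the 32 samples among the 8983 other genes of mean FPKM 5 or more. The points share libraries and depth, and the correlation is what chose the genes, so it is a description with no test. The 12 highest were GLCCI1 (r = 0.979), SORBS2 (0.969), ADAMTS9 (0.963), TYRP1 (0.960), EGLN1 (0.953), CHODL (0.948), ANKRD6 (0.942), KIT (0.936), CEP68 (0.931), DBH (0.924), FUT11 (0.920) and ESYT1 (0.919). NBEA, just outside, had 0.918. In all, 17 genes had r over 0.9 and 17 had r under -0.9, and the median absolute r was 0.232.

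The followers span several roles. KIT is a receptor tyrosine kinase and DBH makes noradrenaline from dopamine. EGLN1 is an oxygen-sensing prolyl hydroxylase, ADAMTS9 is a secreted metalloprotease, TYRP1 is a melanosomal enzyme, and SORBS2 is an adaptor of the actin cytoskeleton. GLCCI1 is known as a glucocorticoid-induced transcript, and ESYT1 tethers the endoplasmic reticulum to the plasma membrane.

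The closest follower, GLCCI1, moved far less than RGS4 but tracked it sample by sample. Its vehicle replicates were at 55.1, 56.6, 55.9 and 57.8 FPKM at 3 h and at 65.6, 65.5, 65.6 and 63.3 at 24 h. Its CBD replicates were at 52.5, 52.4, 53.4 and 52.6 FPKM at 3 h and at 49.8, 49.1, 48.8 and 49.6 at 24 h. Replicate 4 of vehicle at 24 h was the lowest of its group for both genes. With the group means removed, the correlation of GLCCI1 with RGS4 was 0.864. The middle 90% of all candidate genes lay between -0.392 and 0.370. The deviations within groups are part of the correlation that chose GLCCI1, so this comparison is a description only.

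The followers differed in how far they shared the scatter of RGS4 between replicates. Within groups, r over the 12 ran from -0.113 to 0.864 with a median of 0.435, against a median of -0.052 for all candidates. The 12 were chosen on a correlation that includes this scatter, so nothing is read from that excess. EGLN1 (0.701) and DBH (0.623) were next to GLCCI1 in this, while ANKRD6, TYRP1 and ESYT1 were at -0.113, -0.082 and -0.044. In the 16 vehicle samples alone r was between 0.816 and 0.957, and in the 16 CBD samples between 0.145 (CHODL) and 0.880 (ADAMTS9).

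RGS4 had a ratio of highest to lowest group mean of 5.41, and the followers had 1.28 to 3.28, under 2 in 11 of 12. DBH was the exception: it was at 13.8, 12.2, 13.9 and 12.1 FPKM in vehicle at 24 h and at 4.23, 3.74, 4.07 and 3.78 with CBD. CHODL, a lectin-like membrane protein gene, went from a mean of 9.66 FPKM at 3 h to 15.5 at 24 h in vehicle and stayed between 7.80 and 9.08 with CBD. KIT went from 7.27 to 9.34 FPKM in vehicle and from 7.26 to 6.84 with CBD.

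All 12 followers had a higher mean at 24 h than at 3 h in vehicle, and 0 of 12 did with CBD. Their CBD samples lay wholly below the vehicle samples in 4 of 12 genes at 3 h and in 12 of 12 at 24 h. The share of all 8984 genes of mean FPKM 5 or more with that separation was 4.19% at 3 h and 29.7% at 24 h. Since the correlation with RGS4 fixes this direction, nothing is read from the counts.

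**Figure D4:**
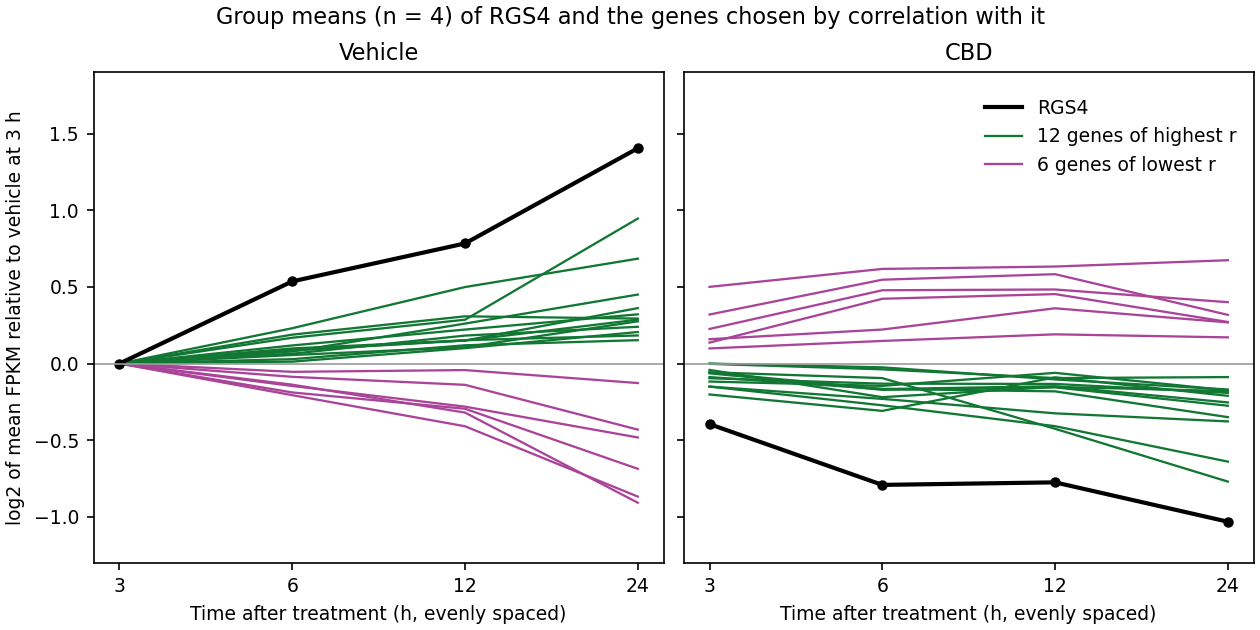
Log2 of the mean FPKM (n = 4) relative to the vehicle mean at 3 h (vertical axis) at 3, 6, 12 and 24 h (horizontal axis, evenly spaced) in vehicle (left) and CBD (right), for RGS4 in black, the 12 genes of highest correlation in green and the 6 of lowest in purple. RGS4 rises most in vehicle and lies lowest of all lines with CBD at each time. From 3 to 24 h the green lines go up in vehicle and down or flat with CBD, though single steps between can go the other way. The purple lines go down in vehicle over the same hours and lie above 0 with CBD.

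The 6 genes that ran most opposite to RGS4 were ETV5 (r = -0.977), SPRY4 (-0.966), ETV4 (-0.962), NQO1 (-0.946), GCLC (-0.942) and DUSP6 (-0.933), with MTHFD1L just outside at -0.930. These fall into 2 known groups. ETV4 and ETV5 are ETS transcription factors, and SPRY4 and DUSP6 are feedback inhibitors of the ERK kinase cascade, all of them known to be induced by it. NQO1 and GCLC are antioxidant genes known as targets of NFE2L2. This reading of the 6 names was made after they were seen. With rank correlation SPRY4 alone of the 6 stayed among the 6 lowest.

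ETV5 ran opposite to RGS4 in vehicle more closely than with CBD (r = -0.965 and -0.636). In vehicle it went from 9.94, 9.67, 9.36 and 9.04 FPKM at 3 h to 5.51, 6.06, 5.85 and 6.19 at 24 h. With CBD it was at 11.5, 11.4, 10.7 and 10.7 FPKM at 3 h and at 13.0, 13.1, 12.4 and 11.7 at 24 h. Its CBD means at 6 and 12 h were 13.2 and 13.3 FPKM, so from 12 to 24 h the means of both genes went down. SPRY4 had the largest log2 difference of the 6 at 3 h (0.44), at 9.53, 8.96, 8.80 and 8.94 FPKM with CBD at 3 h against 6.56, 6.55, 6.13 and 6.37 with vehicle.

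The opposite genes also changed by less than RGS4, with a ratio of highest to lowest group mean between 1.25 (GCLC) and 2.57 (NQO1). The mean of NQO1 in vehicle was 7.69 FPKM at 3 h and 4.10 at 24 h, and with CBD 8.45 and 9.28. None of the 6 had a higher vehicle mean at 24 h than at 3 h (0 of 6), while 5 of 6 did with CBD. DUSP6 was the exception with 18.0 FPKM at both times. Their CBD samples lay wholly above vehicle in 4 of 6 at 3 h and in 6 of 6 at 24 h. Of the 8984 genes, 5.94% were so separated at 3 h and 24.2% at 24 h. The correlation with RGS4 fixes this direction too, so nothing is read from the counts. In the 16 vehicle samples r was between -0.968 and -0.797, in the 16 CBD samples between -0.704 and -0.141, and within groups between -0.484 and -0.093.

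**Figure D5:**
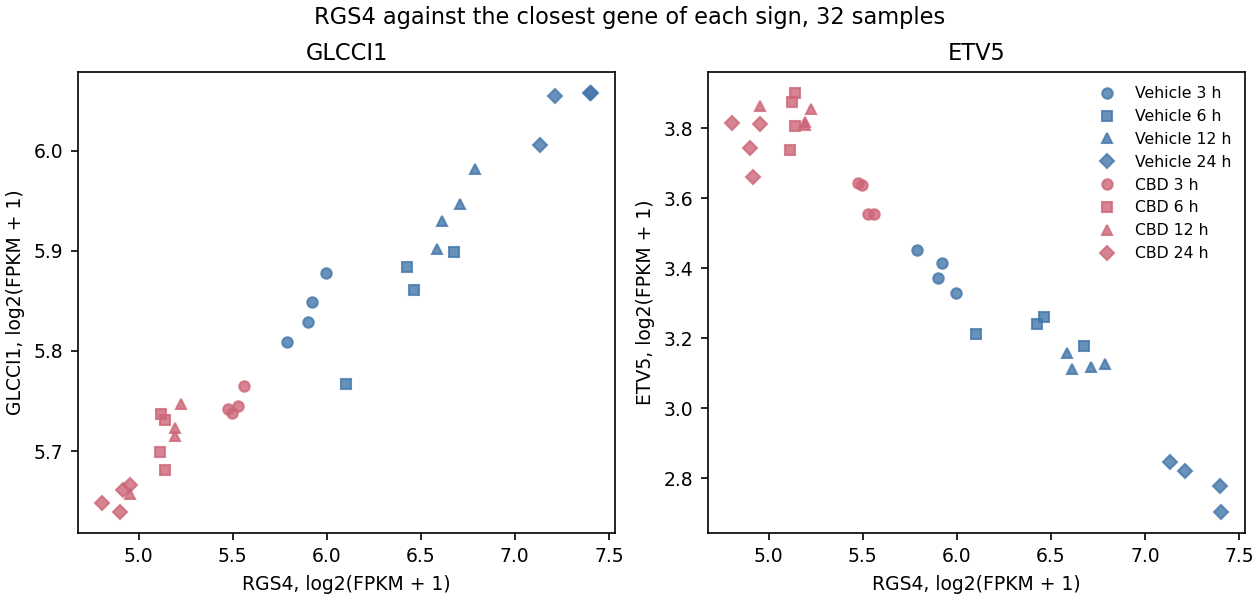
GLCCI1 (left) and ETV5 (right) on the vertical axis against RGS4 on the horizontal axis, all as log2(FPKM + 1), with 1 point per sample (32), vehicle in blue, CBD in red and a symbol for each time. GLCCI1 goes up with RGS4 (r = 0.979) and ETV5 goes down (r = -0.977), and vehicle at 24 h and CBD at 24 h lie at opposite ends of the RGS4 axis.

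The membership of these lists depends on the samples and on the kind of correlation. Without the 24 h samples 4 of the 12 followers remained among the 12 highest (ADAMTS9, GLCCI1, SORBS2, TYRP1), joined by FOSL2, JUN, TXNIP and others, and 5 of the 6 opposite genes remained. With rank correlation 9 of 12 and 1 of 6 remained. With a mean FPKM of 20 or more required, 4 of 12 and 1 of 6 remained. These (GLCCI1, SORBS2, ADAMTS9, ESYT1 and ETV4) were the only listed genes at that level, so the filter itself fixed those counts. With only replicates 1 and 2, 9 of 12 and 4 of 6 remained, and with only replicates 3 and 4, 9 and 5.

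Of the followers 10 of 12 and of the opposite genes 4 of 6 were in the promoter table, with 21 and 4 windows. TGACG, present in 2 of the 4 RGS4 windows, was present in 9.52% of the follower windows and 24.6% of all. ACGTG, absent from the RGS4 windows, was present in 38.1% of the follower windows (8 of 21) and 21.4% of all windows. The windows of a gene overlap, and no test was made.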

How the data were processed

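Polyadenylated RNA from 32 wells was sequenced as single 50-base reads. Per the methods and labels, the authors used Trimmomatic 0.36 for trimming, TopHat for alignment against hg19 and Cufflinks for gene levels. The sources differ on the library kit and the TopHat version. The deposited table holds FPKM for 22610 entries. A deposited table of the authors' own comparisons (Cuffdiff fold changes and p-values) was not used.

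RGS4, its gene lists and the tests were chosen with earlier results of these data known. log2(FPKM + 1) of the 12621 genes of mean FPKM 1 or more was fitted with limma 3.58.1 (R 4.3.3), 8 group means, eBayes with trend, Benjamini-Hochberg within each comparison and a threshold of 0.01. Exact two-sided permutation tests used scipy 1.17.1. Named genes were RGS4, its 12 highest and 6 lowest correlates, tested RGS, N-degron and palmitoylation genes, neighbours within 1 Mb, and list members called with a log2 difference of at least 0.5. FPKM hides the read totals, so relative depth was estimated from the smallest nonzero values of 1414 genes seen in 2 to 8 samples. Neighbours and exons came from GENCODE on GRCh37, because the table gives only chromosomes. 1 neuroblastoma marker of the list is not reported here. Other added values, filters, scalings, sample sets and covariates were tried.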

Additional observations from a re-analysis of the deposited data

Results flagged for a closer look

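A sample far from the other 3 of its group was found in 8 of the 160 groups checked (20 genes), as many as chance gives at about 1 in 20. RGS4 was at 30.0 FPKM in CBD replicate 1 at 12 h, where the others were at 35.5 to 36.4, and this library had the lowest relative depth. RGS2 had 14.4 FPKM in a CBD sample at 12 h (others 14.7) and RGS3 had 9.98 in a vehicle sample at 24 h (others 10.4 to 10.5). RGS19 had 5.16 FPKM in a vehicle sample at 3 h (others 6.49 to 6.56) and 6.84 in a CBD sample at 3 h (others 6.44 to 6.50). Among genes chosen by their correlation with RGS4, GLCCI1 had 63.3 FPKM in a vehicle sample at 24 h, ADAMTS9 had 21.8 in a CBD sample at 3 h and SPRY4 had 10.7 in a CBD sample at 6 h.

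The CBD effect differed between 24 h and 3 h, by a test of that difference in limma, for RGS2 (-0.42 on the log2 scale, adjusted p = 5.05e-05), RGS5 (-0.32, adjusted p = 0.00141), RGS12 (-0.22, adjusted p = 0.00189), RGS14 (0.33, adjusted p = 0.00141), RGS16 (-0.18, adjusted p = 0.00993) and RGS17 (0.30, adjusted p = 0.00255). For RGS4 every vehicle sample was higher at 24 h than at 3 h and every CBD sample lower. The change with CBD less the change with vehicle was -2.01 on the log2 scale, and because the gene was selected on CBD against vehicle, this difference was not tested.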

How the results depend on the processing

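No alternative turned the direction of a call. For RGS4 in vehicle, the step from 3 to 6 h (0.52) lost its call with only the groups compared (adjusted p = 0.0258), and the step from 6 to 12 h gained one without replicate 3 of vehicle at 6 h (0.15 to 0.34 over all single-sample omissions). From 12 to 24 h with CBD, RGS4 was called with 0.1 added, a mean FPKM of 5 or the replicate block (-0.25 in each), with relative depth as a term (-0.32) and without replicate 1 of CBD at 12 h (-0.31 to -0.22 over all omissions). With 5 added, the 24 h CBD difference was -2.25. Counts of other RGS genes became 0 at 6 h and 6 at 24 h with only the groups compared, and at 12 h 1 without a filter, 2 with a mean FPKM of 5, quantile normalization or depth, and 1 to 3 with samples left out. G alpha and effector counts became 0 at 6 h without a filter, with median-ratio scaling or depth and 2 with the block. At 12 h they became 3 without a filter, 2 with quantile normalization or the block and 0 with depth. With samples left out they were 0 to 2 at 3 and 6 h, 0 to 1 at 12 h and 3 to 5 at 24 h. Receptor counts became 2 at 3 h with the block, 3 at 6 h with only the groups compared and 6 at 12 h with a mean FPKM of 5, and 3 to 7 at 6 h with samples left out. N-degron counts became 0 at 6 h with only the groups compared and 3 to 5 at 24 h with samples left out. Followers kept were 4 of 12 with a mean FPKM of 20 or without 24 h, and opposite genes 1 of 6 with a mean FPKM of 20 or rank correlation. Fewer samples or genes entered several of these fits. In the counts above, the genes lost with a mean FPKM of 5 or 20 lay below that level and were removed by the filter itself. Elsewhere the cause was not tested. Of 42 calls of list members and neighbours named by rule, 15 were lost under some alternative and 0 under the replicate block. That count leaves out single-sample omissions and the genes named after their values were seen.

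Same-numbered CBD and vehicle samples did not deviate together (0 of 16 correlations over 0.1, and 5 best with their own number), so the numbers were not treated as pairs. FPKM without read totals limits the precision known for low genes, and 1 cell line, 1 dose and wells as replicates limit what the groups stand for.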
